A study of Mus musculus with 12 samples.

Results

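The 9 genes described here encode the proteins that build, carry and remodel the lipoproteins of the liver: Apob and Mttp, which make very low density lipoprotein (VLDL); the exchangeable apolipoproteins Apoe, Apoc1, Apoc2 and Apoa2; and Lcat, Pltp and Scarb1, which act on high density lipoprotein (HDL). They were taken by name from the gene column of the scanner files, which held 12 probes for them, 2 each for Apoa2, Apob and Scarb1 and 1 for each of the others. All 9 were among the 22128 genes tested, and all 12 probes were well above background on all 12 arrays, so no gene entered through 1 group alone. The rule goes by gene name and uses no measured value. Gene expression was compared between interleukin-18 knockout and wild type BALB/c mice in whole liver at 6 and 12 weeks of age, in 4 groups of 3 arrays each: the knockout at 6 weeks, the wild type at 6 weeks, the knockout at 12 weeks and the wild type at 12 weeks. No treatment was given, and the labels call the arrays of a group biological replicates without stating the sex of the animals or whether each array is 1 animal. Interleukin-18 is an inflammatory cytokine of the interleukin-1 family. The labels give the knockout no tissue restriction and do not state the extent of the deletion.

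The liver secretes triglyceride in VLDL. Apolipoprotein B is the structural protein of the particle, with 1 copy in each, and the microsomal triglyceride transfer protein loads it with lipid as it is made. The small apolipoproteins move between particles and steer them to lipases and receptors, while LCAT esterifies cholesterol on HDL, PLTP moves phospholipid onto it, and scavenger receptor class B type 1 takes up its cholesterol ester into the hepatocyte. Hepatocytes are the main source of most of these transcripts, and macrophages also make Apoe and Pltp.

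Each level below is log2 of the array's processed intensity relative to the 75th percentile of that array, so a level of 1 is 2 times that percentile, and levels of different genes are not set against each other. The sequence of a probe decides what is measured, and 4 of the 12 are shown, those of Apob because its 2 probes sit far apart on 1 transcript, that of Apoe because it was printed in 10 spots and so gives the error within an array, and that of Lcat because this gene differed by age in the wild type. All letters are in lower case, as no base within them is singled out.
Apob, chr12:8012697-8012756, plus strand: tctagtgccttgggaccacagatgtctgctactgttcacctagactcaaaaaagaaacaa
Apob, chr12:8023194-8023253, plus strand: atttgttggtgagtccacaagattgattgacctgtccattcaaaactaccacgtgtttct
Apoe, chr7:20281732-20281791, minus strand: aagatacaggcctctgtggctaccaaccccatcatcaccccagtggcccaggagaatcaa
Lcat, chr8:108463857-108463916, minus strand: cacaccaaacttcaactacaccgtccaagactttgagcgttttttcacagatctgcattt
Coordinates follow mm9, as given beside each probe. The Apob probes begin at bases 4473 and 13457 of the transcript. The Apoe probe lies on chromosome 7 with those of Apoc1 (20274831 to 20274890) and Apoc2 (20257027 to 20257086), all 3 within 24.8 kb on the minus strand. The remaining genes lie apart, Mttp on chromosome 3, Pltp on chromosome 2, Scarb1 on chromosome 5 and Apoa2 on chromosome 1.

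Il18 itself had levels of -0.37 to -0.02 in the knockout at 6 weeks and -0.12 to 0.04 at 12 weeks, against 2.35 to 2.44 in the wild type at 6 weeks and 2.15 to 2.49 at 12 weeks, so every array matched the genotype of its label. These levels do not tell the ages apart. The arrays lay on 2 slides, which bears on every genotype comparison at 6 weeks. All 6 knockout arrays were on slide 2, together with replicates 2 and 3 of the 12-week wild type, whose replicate 1 was on slide 1 with every wild type array of the younger age. Genotype and slide thus cannot be told apart at 6 weeks within either slide, and fits blocked on slide draw there on 1 wild type array of 12 weeks. The age comparison in the knockout lies within slide 2. The 75th percentile of the processed signal, subtracted from each level, was 411 to 419.6 on slide 1 and 348.9 to 392.6 on slide 2. Within slide 2 it was 348.9 to 384.7 in the knockout, and 392.6 and 387.2 in the 12-week wild type. It was thus lower on every knockout array than on every wild type array. How far this enters the genotype differences was not tested. Hepatocyte markers were high in every group, with summed levels (linear, in multiples of the 75th percentile, over 7 genes) of 6330 to 7352 in the knockout and 7213 to 7416 in the wild type at 6 weeks, and of 5937 to 6369 in the knockout and 6462 to 6860 in the wild type at 12 weeks. The sums of the genotypes overlapped at 6 weeks and did not at 12 weeks. Of 10 markers of bile duct, stellate, adipocyte and pancreatic cells, Epcam, Adipoq, Plin1 and Cpa1 were not well above background in any whole group, and the other 6 summed to 2.04 to 2.52 in the knockout and 2.40 to 2.77 in the wild type over both ages. Knockout against wild type, 0 of 7 hepatocyte, 0 of 9 macrophage and 1 of 6 sinusoidal endothelial markers passed at 6 weeks, and 1 of 7, 1 of 9 and 0 of 6 at 12 weeks. Over all genes tested, 21.1% passed at 6 weeks and 8.21% at 12 weeks. The endothelial marker was Kdr, lower in the knockout (-0.54, adjusted p = 0.027). At 12 weeks the hepatocyte marker Cps1 was higher (0.53, adjusted p = 0.0302) and the macrophage marker Timd4 lower (-0.81, with an adjusted p just under the threshold that rounds to 0.05). The median difference of the 7 hepatocyte markers at 12 weeks was -0.06. That of the 9 macrophage markers was -0.275, with all of them lower in the knockout (-1.43 to -0.03) and 4 at an unadjusted p under 0.05 in limma. Of the 6 other cell markers tested, 2 passed at 6 weeks, the bile duct marker Sox9 (1.81, adjusted p = 0.00223) and the stellate cell marker Lrat (-0.50, adjusted p = 0.0344), and 0 at 12 weeks, where 0 had an unadjusted p under 0.05 in limma. With the slide blocked, Sox9 (1.44, adjusted p = 0.169) and Lrat (-0.60, adjusted p = 0.267) missed the threshold. The part of these markers in the results at 6 weeks was not tested. In whole liver, fewer cells of a type and less RNA per cell cannot be told apart.

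Pltp carried the largest difference of the 9 genes, and it went with age. At 12 weeks the knockout livers had levels of 2.37, 2.59 and 2.49, against 1.26, 1.19 and 1.15 at 6 weeks. Every older knockout array lay more than 1 log2 unit above every younger one. Pltp, whose product transfers phospholipid between lipoproteins and enlarges HDL, was thus 2.44-fold higher at 12 than at 6 weeks in the knockout (log2 difference 1.28 ± 0.23, SE of the fit, n = 3 per group, adjusted p = 0.00985). It kept an adjusted p under 0.05 in all 24 alternative fits, between 0.00219 and 0.0456, and with slide 2 alone the adjusted p was 0.0347.

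Wild type livers had Pltp levels of 2.01, 1.42 and 2.53 at 12 weeks, against 0.96, 0.73 and 1.21 at 6 weeks. The groups did not overlap here either, though at 12 weeks the knockout arrays had an SD of 0.11 and the wild type arrays one of 0.55. Pltp was 2.03-fold higher at 12 weeks in the wild type (1.02 ± 0.23, SE, adjusted p = 0.0233). On slide 1 the difference was 1.04, from replicate 1 of the 12-week wild type, but the call was lost in the fit blocked on slide (adjusted p = 0.132). It was lost in 6 of 23 alternative fits, with an adjusted p from 0.0508 (no filter on dim probes) to 0.138 (only the wild type arrays); the others were a random slide block (0.0577) and leaving out replicate 1 (0.064) or 2 (0.0805) of the 6-week wild type. The rise did not differ by genotype past the threshold (difference of differences 0.27, 95% interval -0.45 to 0.98, adjusted p = 0.649).

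Between genotypes, Pltp averaged 2.49 ± 0.11 in the knockout and 1.98 ± 0.55 in the wild type at 12 weeks (SD, n = 3 each), and 1.20 ± 0.06 in the knockout and 0.97 ± 0.24 in the wild type at 6 weeks. Neither difference passed (0.50 at 12 weeks, adjusted p = 0.206; 0.23 at 6 weeks, adjusted p = 0.483), and the groups overlapped at both ages. Replicate 3 of the 12-week wild type was the array that reached the knockout's range, and without it the difference at 12 weeks was 0.77 (adjusted p = 0.032). The other 23 of 24 alternative fits missed the threshold at 12 weeks. Over all 24 the difference ran from 0.22 to 0.77, with an adjusted p of up to 0.48. The fixed slide block gave 0.51 (adjusted p = 0.293). Macrophage markers, 9 genes including Cd5l, Marco and Timd4, had summed levels of 102.9 to 169.4 in the knockout at 12 weeks and 134.2 to 147 at 6 weeks, and of 152.9 to 201.9 in the wild type at 12 weeks and 117.8 to 135.4 at 6 weeks. The sums of the 2 ages overlapped in the knockout and did not in the wild type, and their part in the age difference of Pltp was not tested in either genotype.

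**Figure D1:**
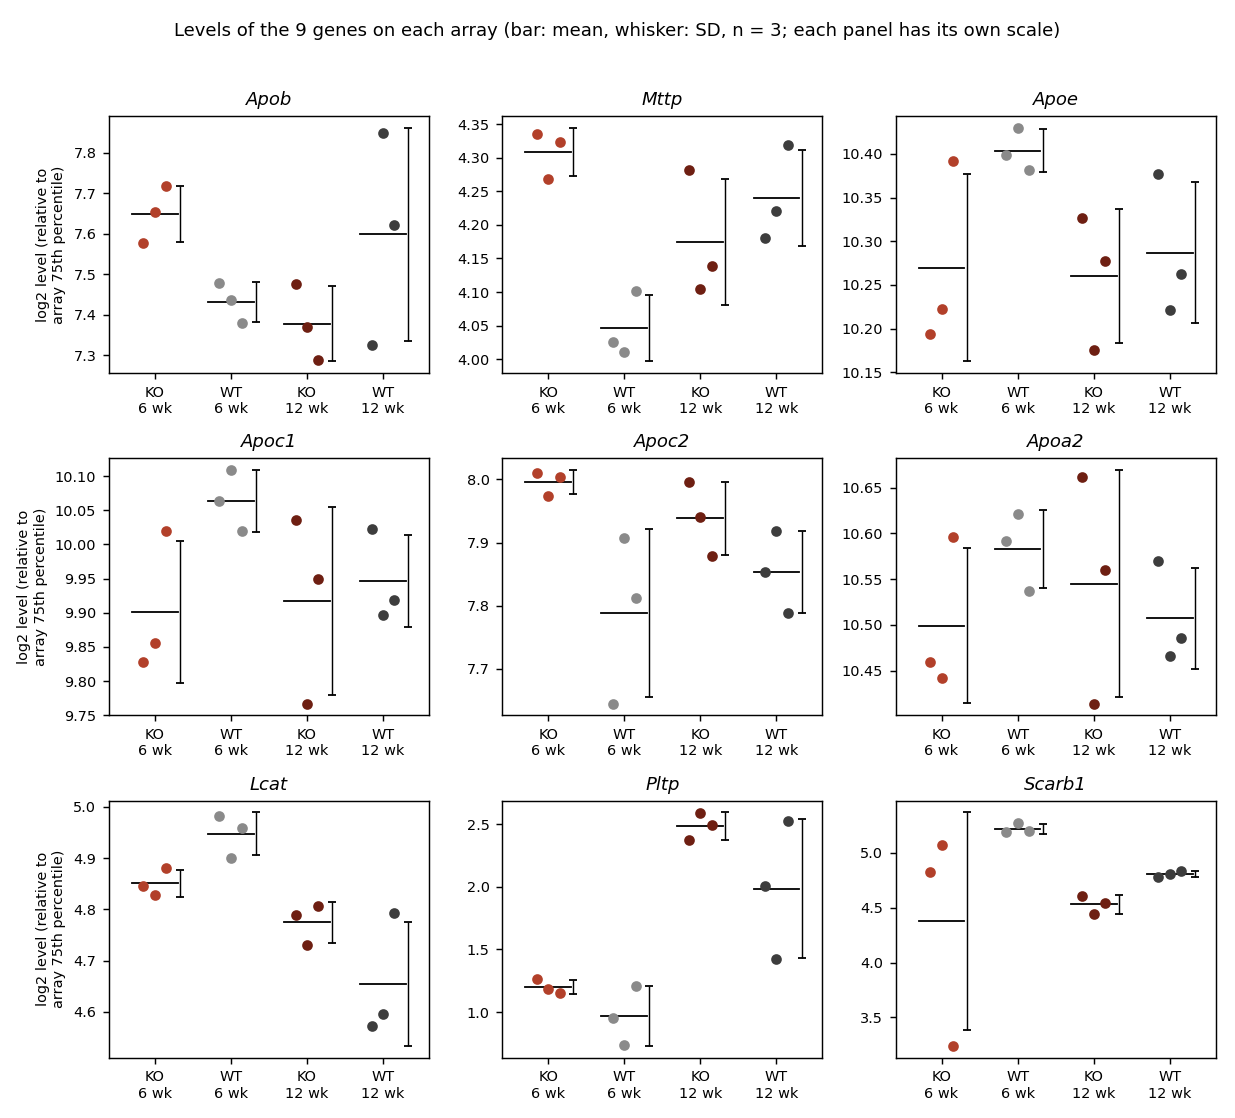
Log2 level of each of the 9 genes on each of the 12 arrays, relative to the array's 75th percentile, with the knockout (KO) and the wild type (WT) at 6 and then 12 weeks; bars are means and whiskers SDs (n = 3), and each panel has its own scale. Pltp lies at 2.37 to 2.59 in the 12-week knockout against 1.15 to 1.26 in the 6-week knockout, and Scarb1 has 1 low array, at 3.24, in the 6-week knockout.

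Of the 2 genes of VLDL assembly, Mttp differed between genotypes at 6 weeks. Its levels were 4.34, 4.27 and 4.32 in the knockout, against 4.03, 4.01 and 4.10 in the wild type. The groups did not overlap, but the distance between them was small. Mttp, the lipid transfer protein without which apolipoprotein B is degraded before secretion, was 1.20-fold higher in the knockout at 6 weeks (0.26 ± 0.07, SE, n = 3 per group, adjusted p = 0.0316). A fixed slide block gave 0.17 (adjusted p = 0.51) and a random one 0.23 (adjusted p = 0.21). Leaving out any 1 of the 6 arrays compared also ended the call (adjusted p from 0.0545 to 0.0975).

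At 12 weeks Mttp had levels of 4.28, 4.10 and 4.14 in the knockout and 4.18, 4.22 and 4.32 in the wild type, which overlapped. The difference was -0.07 ± 0.07 (SE, adjusted p = 0.628). Set against 6 weeks, the 12-week level differed by -0.13 in the knockout (adjusted p = 0.334) and by 0.19 in the wild type (adjusted p = 0.132), neither past the threshold. The genotype difference at 12 weeks minus that at 6 weeks was -0.33 ± 0.10 (adjusted p = 0.0747). It passed after quantile normalization (-0.32, adjusted p = 0.0403) and without replicate 1 of the 12-week wild type (-0.36, adjusted p = 0.0486). In the other 20 of 22 alternative fits it missed the threshold, and the fixed slide block gave -0.27 (adjusted p = 0.214).

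Apob, which encodes the structural protein of VLDL and its remnants, had levels of 7.58, 7.65 and 7.72 in the knockout and 7.48, 7.44 and 7.38 in the wild type at 6 weeks. These groups did not overlap, yet the difference, 0.22 ± 0.12 (SE), missed the threshold (adjusted p = 0.213), and blocking on slide turned its sign (-0.20, adjusted p = 0.539). At 12 weeks the levels were 7.48, 7.37 and 7.29 in the knockout and 7.32, 7.85 and 7.62 in the wild type. The wild type array of slide 1, at 7.32, lay among the knockout arrays and the 2 of slide 2 lay above them. The difference at 12 weeks was -0.22 (adjusted p = 0.288), and within slide 2 it was -0.36 (adjusted p = 0.108).

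Within the knockout, every 12-week array lay below every 6-week array for Apob, and the difference of -0.27 did not pass (adjusted p = 0.218). The genotype difference changed by -0.44 ± 0.17 between the ages (adjusted p = 0.134). Without replicate 1 of the 12-week wild type, the change was -0.58 (adjusted p = 0.0174), whereas the slide block gave -0.16 (adjusted p = 0.544). The second Apob probe, near the end of the transcript, gave 6.15, 6.28 and 6.05 in the knockout and 6.02, 5.93 and 6.32 in the wild type at 6 weeks. There the groups overlapped, and the difference was 0.07. At 12 weeks it gave 6.03, 6.11 and 5.52 in the knockout and 6.07, 6.00 and 5.93 in the wild type, a difference of -0.11. Its signs were those of the first probe in these 2 comparisons and its sizes were smaller.

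The exchangeable apolipoproteins gave no difference past the threshold in any comparison. Apoe, the ligand by which remnant particles bind hepatic receptors, had levels of 10.19, 10.22 and 10.39 in the knockout and 10.40, 10.43 and 10.38 in the wild type at 6 weeks. Replicate 3 of the knockout lay within the wild type range and the other two below it. The difference was -0.13 ± 0.08 (SE, 95% interval -0.31 to 0.04, adjusted p = 0.246). At 12 weeks the levels were 10.33, 10.18 and 10.28 in the knockout and 10.38, 10.22 and 10.26 in the wild type, and the difference was -0.03 (interval -0.20 to 0.15). The 10 spots of the Apoe probe had an SD of 0.10 to 0.17 within an array.

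Apoc1, which encodes an inhibitor of lipoprotein uptake and of lipases, had levels of 9.83, 9.86 and 10.02 in the knockout and 10.06, 10.11 and 10.02 in the wild type at 6 weeks. At 12 weeks it had 10.04, 9.77 and 9.95 in the knockout and 10.02, 9.90 and 9.92 in the wild type. The groups overlapped or touched at both ages, with differences of -0.16 (95% interval -0.36 to 0.03) and -0.03 (interval -0.23 to 0.17).

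Apoc2, the cofactor that activates lipoprotein lipase, ran the other way at 6 weeks, with levels of 8.01, 7.97 and 8.003 in the knockout and 7.65, 7.91 and 7.81 in the wild type. The knockout arrays lay close together, above all wild type arrays. The difference, 0.21 ± 0.08 (SE), missed the threshold (adjusted p = 0.0902), also under the slide block (0.21, adjusted p = 0.487). At 12 weeks the levels were 7.995, 7.94 and 7.88 in the knockout and 7.85, 7.92 and 7.79 in the wild type, which overlapped, with a difference of 0.08 (interval -0.09 to 0.26).

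Apoa2, the second protein of HDL by abundance, had levels of 10.46, 10.44 and 10.60 in the knockout and 10.59, 10.62 and 10.54 in the wild type at 6 weeks. At 12 weeks they were 10.66, 10.41 and 10.56 in the knockout and 10.57, 10.47 and 10.49 in the wild type. Both pairs of groups overlapped, and the differences were -0.08 (95% interval -0.27 to 0.10) and 0.04 (interval -0.14 to 0.22). Its other probe gave -0.05 and 0.02. Over age, the differences of these 4 apolipoprotein genes lay between -0.06 (Apoc2) and 0.05 (Apoa2) in the knockout and between -0.12 (Apoc1) and 0.07 (Apoc2) in the wild type.

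**Figure D2:**
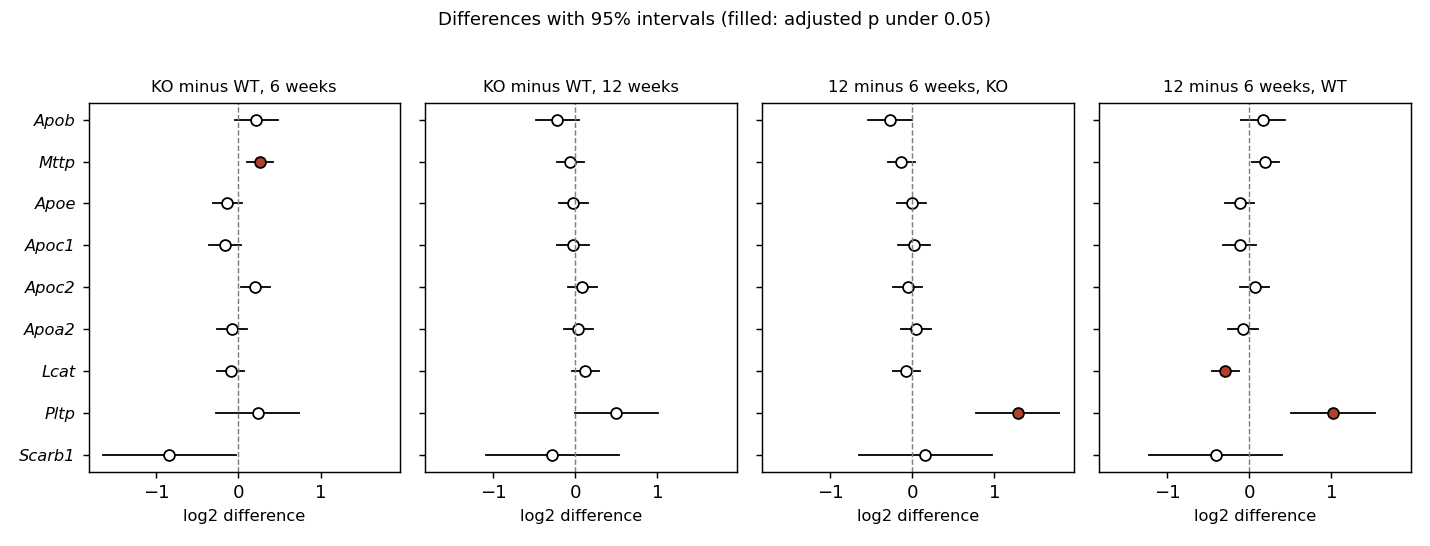
Log2 differences (points) with 95% intervals of the fit (lines) for the 9 genes, in 4 panels: knockout (KO) minus wild type (WT) at 6 and at 12 weeks, and 12 minus 6 weeks in the knockout and in the wild type; filled points passed an adjusted p of 0.05. Mttp is the 1 filled point at 6 weeks and no point is filled at 12 weeks, while Pltp is filled in both age panels at 1.28 and 1.02.

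Lcat, whose enzyme turns free cholesterol on HDL into cholesterol ester, was lower at 12 weeks in the wild type. Its levels were 4.57, 4.60 and 4.79 at 12 weeks, against 4.98, 4.90 and 4.96 at 6 weeks. No older array reached a younger one, and replicate 3 of the older group came nearest. The fall was 1.23-fold (-0.29 ± 0.07, SE, n = 3 per group, adjusted p = 0.0368). Blocking on slide gave -0.37 (adjusted p = 0.0734), and the call was lost in 14 of 23 alternative fits, with an adjusted p of at most 0.184 and differences between -0.37 and -0.25. The sums of the hepatocyte markers also lay lower at 12 than at 6 weeks in the wild type with no overlap, its 7 markers differing by -0.22 to -0.12 with 0 past the threshold in limma and 1 at an unadjusted p under 0.05, and their part in the Lcat difference was not tested.

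In the knockout, Lcat had levels of 4.79, 4.73 and 4.81 at 12 weeks, against 4.85, 4.83 and 4.88 at 6 weeks. These groups did not overlap either, at a difference of -0.08 ± 0.07 (adjusted p = 0.631). Knockout against wild type gave -0.10 at 6 weeks, with no overlap, and 0.12 at 12 weeks, with overlap (adjusted p = 0.371 and 0.348). The change between the ages in the genotype difference was 0.22 (95% interval -0.02 to 0.45, adjusted p = 0.226).

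Scarb1 encodes SR-B1, the hepatic receptor for HDL cholesterol ester. By genotype, and on all arrays by age, its 2 probes differed in what they showed. In the brighter probe, 1 low spot entered the 6-week knockout mean and the shared spread. That probe, at chr5:125757483-125757542 on the minus strand, had levels of 4.82, 5.07 and 3.24 in the knockout and 5.19, 5.27 and 5.20 in the wild type at 6 weeks. Replicate 3 of the knockout stood far below the others. The probe is printed once per array, and the mean signal of that spot was 3370, against 10786 and 13157 on the other two knockout arrays, with no outlier mark. The resulting -0.85 ± 0.36 (SE) missed the threshold (adjusted p = 0.121), and without that array the difference was -0.28 (adjusted p = 0.0815).

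At 12 weeks the brighter probe had levels of 4.61, 4.44 and 4.55 in the knockout and 4.78, 4.81 and 4.84 in the wild type. The groups did not overlap, and the difference was -0.28 ± 0.36 (SE, adjusted p = 0.679), with a standard error that the 1 low spot of 6 weeks enters through the shared spread. Without that array the same difference had an SE of 0.09 (adjusted p = 0.0824). In the wild type, 12 weeks lay below 6 weeks by 0.41 on this scale with no overlap (log2 difference -0.41, adjusted p = 0.513, and 0.023 without replicate 3 of the 6-week knockout). In the knockout the difference by age was 0.15, and without that replicate it turned to -0.41 (adjusted p = 0.0485).

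The dimmer Scarb1 probe, at chr5:125761540-125761599, had no such spot. Its levels in the knockout were 0.58, 0.64 and 0.57 at 12 weeks, against 1.002, 0.89 and 1.11 at 6 weeks. In the wild type they were 0.76, 0.63 and 0.44 at 12 weeks, against 1.06, 1.07 and 0.99 at 6 weeks. In each genotype every older array lay below every younger one. By this probe Scarb1 fell with age by 0.40 on the log2 scale in the knockout (adjusted p = 0.0319 over the 29804 probes tested) and by 0.43 in the wild type (adjusted p = 0.0214 over the probes). The 12-week wild type array of slide 1, which held all 6-week wild type arrays, lay at 0.76. Those of slide 2 lay at 0.63 and 0.44, and no slide-blocked value is given for this probe. Knockout against wild type gave -0.04 at 6 weeks and -0.01 at 12 weeks, with overlapping groups. Without the array of the low spot, the brighter probe differed by age by -0.41 in each genotype, near the values of the dimmer one. Its genotype differences, then -0.28 at each age, were larger in size than those of the dimmer probe. The brighter probe starts at base 2415 of the transcript and the dimmer one at base 1597.

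**Figure D3:**
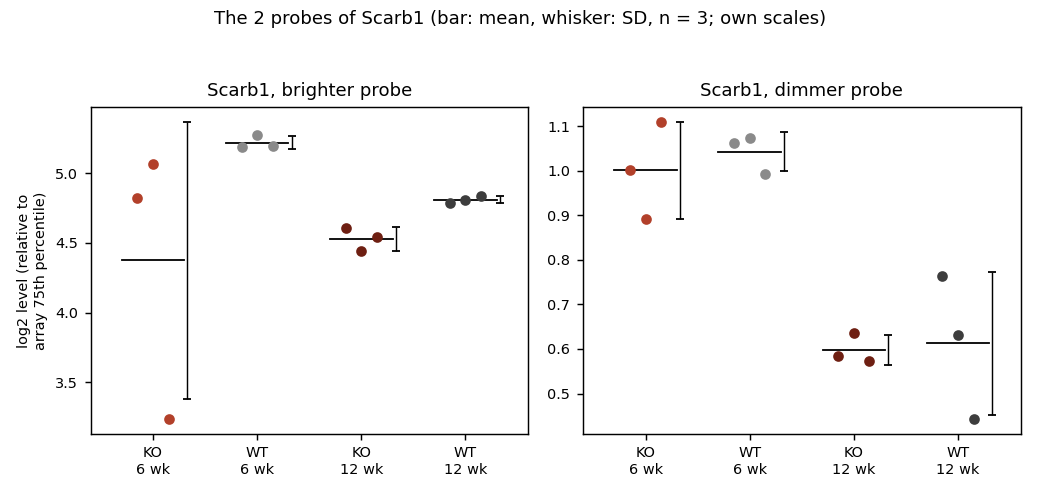
Log2 level of the brighter (left) and the dimmer (right) Scarb1 probe on each array, relative to the array's 75th percentile, for the knockout (KO) and the wild type (WT) at 6 and then 12 weeks; bars are means and whiskers SDs (n = 3), on separate scales. The brighter probe has 1 array at 3.24 in the 6-week knockout, and the dimmer probe lies at 0.44 to 0.76 at 12 weeks against 0.89 to 1.11 at 6 weeks.

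Counted over the 9 genes, 1 was higher and 0 were lower in the knockout at 6 weeks, where 21.1% of all genes tested passed (11.7% higher and 9.35% lower). Unadjusted, 3 of the 9 had a p under 0.05 in that comparison. At 12 weeks 0 of 9 passed and 0 had an unadjusted p under 0.05, against 8.21% of all genes (5.65% higher and 2.56% lower). The median log2 difference of the 9 was -0.08 at 6 weeks and -0.03 at 12 weeks, beside 0.02 and 0.01 over all genes. By age, 1 of 9 was higher and 0 lower in the knockout (all genes 6.91%, 3.98% higher and 2.93% lower), and 1 was higher and 1 lower in the wild type (all genes 9.03%, 4.61% higher and 4.43% lower). These counts take Scarb1 from its brighter probe, which held the low spot. Its dimmer probe was lower at 12 weeks in the knockout and in the wild type (limma's adjusted p = 0.0319 and 0.0214 over the probes). The genotype difference changed between the ages for 0 of 9 by limma's adjusted p and for 2 at an unadjusted p under 0.05, Mttp and Apob, against 10.3% of all genes past the threshold (5.58% positive and 4.76% negative). The comparison at 6 weeks and the age comparison in the wild type share the 6-week wild type arrays.

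Among themselves, the 9 genes fell into no single pattern over the 12 arrays. Apoe and Apoc1 had a Pearson r of 0.961 across arrays, Apoa2 and Apoc1 0.917 and Apoa2 and Apoe 0.843. Apoc2, between whose probe and that of Apoe the Apoc1 probe lies, had -0.392 with Apoe and -0.374 with Apoc1. Apob and Mttp had 0.572. These arrays share groups and slides, so the values are descriptions. Over 13867 genes with a plain symbol, the level of Apoe was most like that of Alb, the albumin gene, at 0.974, and then Apoc1. Mttp was most like Glud1, a glutamate dehydrogenase gene, at 0.974 and Htra1 at 0.949. Apob was nearest Mtdh (0.948) and Pkn3 (0.941), Apoc1 nearest the mitochondrially encoded ND2 (0.964) and Apoe, and Apoc2 nearest Dpy19l1 (0.907) and Dpm2 (0.901). For Apoa2 the nearest were Apoc1 and, at 0.906, the antitrypsin gene Serpina1a. Lcat was nearest Ybx3 (0.95) and Chchd7 (0.942), Pltp nearest Foxq1 (0.96) and Atn1 (0.936), and Scarb1, with its 1 low array, nearest Agbl4 (0.918) and Rpl13a (0.917).

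Promoter windows of RefSeq on GRCm38, 250 bases before to 50 after a start, were at hand for Apoa2, Apob, Apoc2, Apoe, Lcat, Mttp and Pltp, 10 windows in all. Searched on both strands, none held 2 copies of the nuclear receptor motif AGGTCA spaced by 1 or by 4 bases (in 0.03957% and 0.01522% of 32851 windows of all genes) or the E-box CACGTG (7.15%). The TATA box letters TATAAA stood in 4 of the 10 windows, those of Pltp, Apob, 1 of Apoa2 and 1 of Apoe, and in 13.62% of all windows. The matches began at -212 in Apoa2, -60 in Apob, -100 and -96 in Apoe (on opposite strands, overlapping) and 36 in Pltp, in bases from the start.

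Other genes of the pathway were counted list by list, to be read against the 21.1% of all genes called at 6 weeks and the 8.21% called at 12 weeks. The Apoa1 cluster lies on chromosome 9 and is linked to Il18. Apoa4, an apolipoprotein of chylomicrons and HDL, averaged 4.29 ± 0.25 in the knockout and 1.53 ± 0.15 in the wild type at 6 weeks, and 4.18 ± 0.18 in the knockout and 1.61 ± 0.64 in the wild type at 12 weeks (SD, n = 3 each). Of 4 genes of that cluster, 2 were higher at 6 weeks, Apoa4 (2.77) and Apoa1 (0.30), and at 12 weeks Apoa4 was higher (2.56) and Apoa1 lower (-0.41). The median differences were 0.21 and 0.08. Under the slide block 1 of these 4 passed at 6 weeks, Apoa4 at 3.22, and Apoa1 did not (0.41, adjusted p = 0.203). At 12 weeks that fit gave 2.72 for Apoa4 (adjusted p = 0.00354) and -0.37 for Apoa1 (adjusted p = 0.055). Apoa4 kept its 12-week call in 24 of 24 alternative fits and Apoa1 in 16.

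Of 7 other apolipoprotein genes, 1 was higher and 2 were lower in the knockout at 6 weeks, and 0 were higher and 1 lower at 12 weeks (medians 0.01 and 0.00). Apon was the one higher (0.59, adjusted p = 0.00235), Apod (-0.44) and Apoh (-0.33) were lower at 6 weeks, and Apom, whose product carries sphingosine 1-phosphate on HDL, was lower at 12 weeks (-0.34, adjusted p = 0.0332). Blocking on the slide left 0 of the 7 called at 6 weeks, with Apon at 0.59 (adjusted p = 0.0998), Apod at -0.39 and Apoh at -0.31. At 12 weeks Apom passed in that fit (-0.39, adjusted p = 0.0332). It kept its call in 13 of 24 alternative fits, with an adjusted p of up to 0.146.

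Genes that assist VLDL assembly and secretion numbered 3 higher and 1 lower of 12 at 6 weeks, and 0 higher and 1 lower at 12 weeks (medians 0.06 and 0.04). Sort1, a sorting receptor that handles apolipoprotein B in the secretory path, averaged 0.92 ± 0.05 in the knockout and 0.48 ± 0.21 in the wild type at 6 weeks, and 0.11 ± 0.06 in the knockout and 1.03 ± 0.11 in the wild type at 12 weeks (SD, n = 3 each). It was higher at the younger age (0.44, adjusted p = 0.0168) and lower at the older (-0.92, adjusted p = 0.00194). Apobec1, the editing enzyme of the Apob transcript (0.68), and Tmem41b (0.40) were also higher at 6 weeks, and Dgat2, which makes triglyceride, was lower (-0.36). Of these 12, the slide block left 0 called at 6 weeks, with Sort1 at 0.46, Apobec1 at 0.46, Tmem41b at 0.20 and Dgat2 at -0.51, and 1 at 12 weeks, Sort1 at -0.91.

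Among 10 lipoprotein receptors and their regulators, 1 was higher and 1 lower at 6 weeks, and at 12 weeks 0 were called and 0 had an unadjusted p under 0.05 in limma (medians 0.05 and 0.07). Vldlr averaged -0.78 ± 0.40 in the knockout and 2.35 ± 0.11 in the wild type at 6 weeks, and -0.80 ± 0.22 in the knockout and -0.82 ± 1.03 in the wild type at 12 weeks (SD, n = 3 each). The 6-week wild type thus stood above the other 3 groups. Sdc1, a proteoglycan that captures remnants, was higher at 6 weeks (0.51, adjusted p = 0.00466). Of 7 genes of cholesterol efflux and lipases, Abca1 was higher at 6 weeks (0.37, adjusted p = 0.00792), Lipc lower (-0.32, adjusted p = 0.0434) and Lipg at least 1.80-fold lower (adjusted p = 0.0116), as no 6-week knockout array was well above background for it. At 12 weeks 0 of the 7 were called by limma's adjusted p and 0 had an unadjusted p under 0.05. The medians of the 7 were -0.32 at 6 weeks and -0.19 at 12 weeks. In the blocked fit Vldlr (-3.81) still passed at 6 weeks, and Sdc1 (0.48), Abca1 (0.42), Lipc (-0.20) and Lipg (a fitted -2.65) did not (adjusted p from 0.13 to 0.606).

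Of 15 transcription factor and coactivator genes known to act on lipoprotein genes, 0 were higher and 4 lower in the knockout at 6 weeks, and 1 was higher and 0 were lower at 12 weeks (medians 0.03 and 0.18). Nr1h4, the bile acid receptor FXR, averaged 5.25 ± 0.04 in the knockout and 5.88 ± 0.02 in the wild type at 6 weeks (SD, n = 3 each; -0.62, adjusted p = 0.000731). Ppargc1b (-1.69), Ppara (-0.61) and Cebpa (-0.47) were lower as well at 6 weeks. Cebpa was higher in the knockout at 12 weeks (0.32, adjusted p = 0.0321). When slide was blocked, 1 of the 15 passed at 6 weeks, Nr1h4 at -0.80, and 0 at 12 weeks, where Cebpa had 0.34 (adjusted p = 0.0507).

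**Figure D4:**
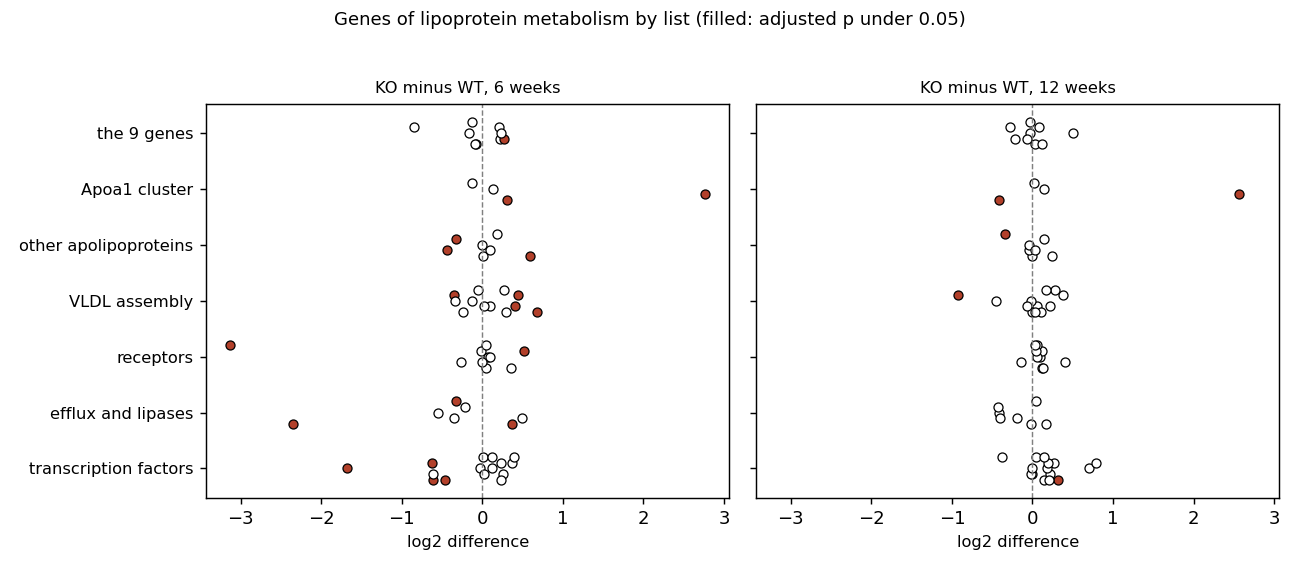
Log2 differences, knockout (KO) minus wild type (WT), of every tested gene of 7 lists at 6 weeks (left) and 12 weeks (right); each point is 1 gene, filled where the adjusted p was under 0.05, with a small vertical offset for legibility. The 9 genes lie between -0.85 and 0.26 at 6 weeks and between -0.28 and 0.50 at 12 weeks, and Apoa4 lies apart at 2.77 and 2.56; the point of Lipg at 6 weeks is a fitted value, as its knockout arrays were not above background.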

How the data were processed

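RNA from whole livers was hybridised to 12 1-colour Agilent mouse arrays. Per the file headers, Agilent Feature Extraction 10.7.3.1 made the deposited processed intensity, background-subtracted and not scaled between arrays. The series' deposited value table held the same intensity, differing by at most 0.497%, linear and not centred, and served as an alternative. Its column medians ran from 21.6 to 29.5.

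Without control and outlier spots, log2 values of each probe's spots were averaged, and each array's 75th percentile was subtracted. Testing required that 1 group or more had a probe well above background on its 3 arrays (53.5% of 55681). A gene took its probe with the highest mean. Group means over the 12 arrays were fitted in R 4.3.3 by limma 3.58.1 (lmFit, then eBayes; residual degrees of freedom 8), with Benjamini-Hochberg adjustment over all genes and a threshold of 0.05. Each adjusted p is limma's. The fit was tested on simulated data. The number of arrays limits the precision.

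Alternatives changed background correction, normalization, filter, slide block, samples, replicate block, probe choice and value table, or left out 1 array. The 9 genes, though picked by name, and the lists were chosen with earlier results of these data known. All 9 genes are named with each probe, the 2 genes most like each by Pearson r, and from each pathway list up to 3 genes with the smallest genotype p, besides those needed to describe a count. Apobec1, Apoh, Ppara, Sox9, Lrat, Kdr, Cps1 and Timd4 were named for a count, after their values were seen. Current symbols came from a RefSeq table on GRCm38, by accession for 26582 probes. One transcription factor gene was taken out of its list and the list's counts, and is not reported here.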

Additional observations from a re-analysis of the deposited data

Results flagged for a closer look

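No one of the 9 genes met a rule for a closer look, and groups of 3 arrays were not searched for outlying arrays. Of the genes named beside them, 12 had a genotype difference that changed between the ages by the fit's own test, given here as the log2 difference at 12 weeks minus that at 6 weeks. The change was 3.16 for Vldlr (adjusted p = 0.00848), 1.68 for Ppargc1b (adjusted p = 0.0216), 0.82 for Nr1h4 (adjusted p = 0.00187), 0.82 for Ppara (adjusted p = 0.02), 0.79 for Cebpa (adjusted p = 0.00214) and 0.73 for Dgat2 (adjusted p = 0.0128). It was -2.10 for Sox9 (adjusted p = 0.0086), -1.36 for Sort1 (adjusted p = 0.000814), -0.71 for Apoa1 (adjusted p = 0.00663), -0.53 for Apom (adjusted p = 0.0187), -0.46 for Sdc1 (adjusted p = 0.0466) and -0.39 for Abca1 (adjusted p = 0.0419). With the slide as a block, Vldlr (3.61), Nr1h4 (0.93), Ppara (0.94), Cebpa (0.76), Dgat2 (0.83), Sort1 (-1.37) and Apoa1 (-0.78) still passed. Sox9 (-1.86), Ppargc1b (1.62), Apom (-0.43), Sdc1 (-0.44) and Abca1 (-0.42) did not.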

How the results depend on the processing

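Counts of the 9 genes that passed, over all alternatives, were as follows. At 6 weeks, knockout against wild type, 1 passed; 0 did with no filter on dim probes or with the slide as a fixed or random block, and 0 to 1 when single arrays were left out. At 12 weeks 0 passed, and 0 to 1 without single arrays. By age in the knockout 1 passed, and 1 to 2 without single arrays. By age in the wild type 2 passed; 0 did with no filter, with the slide as a fixed or random block, or with only the groups compared, and 0 to 2 without single arrays. The change between the ages in the genotype difference was called for 0, for 1 after quantile normalization, and for 0 to 2 without single arrays. Scarb1 by age in the knockout, 0.15 on all arrays, ran from -0.41 to 0.50 without single arrays, and was negative without replicate 3 of the 6-week knockout, which held the low spot. Of pathway genes named by the rule, Apoc3 at 6 weeks reversed to 0.45 and Tmem41b at 12 weeks to 0.36 with the mean of a gene's probes, an alternative that adds their dimmer probes. Both then passed (adjusted p = 0.0156 and 0.0368). Apoc3 at 12 weeks also passed with it (0.44, adjusted p = 0.0321), from 0.02 in the main fit.

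With the replicate block the counts were 1, 0, 1, 2 and 0, the same as without it. Same-numbered arrays of different groups had correlations of -0.086 to 0.18 between their deviations, 2 of 18 pairs over 0.1, so the numbers give no pairing. Over all genes, 4661 passed at 6 weeks, 588 with the slide as a fixed block and 1227 as a random one; by age in the wild type it was 1999, 728 and 1079. With no filter, 825 passed at 12 weeks against 1817, 730 by age in the knockout against 1529, 1230 by age in the wild type and 1341 for the change between ages against 2288. Slide 2 alone gave 733 at 12 weeks, and fitting only the groups compared 378 at 12 weeks and 395 by age in the wild type. Leaving out single arrays gave 2549 to 6204 at 6 weeks, 680 to 2073 at 12 weeks, 628 to 1835 by age in the knockout, 980 to 3811 by age in the wild type and 1562 to 3318 for the change between ages. The cause of these shifts was not tested.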
